A study of Drosophila melanogaster with 3 samples.

Results

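Hemolymph clotting was followed through 4 genes, Hml, Pxn, fon and Tg, in lymph glands of Drosophila larvae. The rows were taken from the deposited count tables by gene symbol, and all 4 were found among the 17490 genes listed and among the 9056 genes tested. The lymph gland is the larval organ in which blood cells, called hemocytes, are formed. Bulk RNA was sequenced from glands of Oregon-R larvae, a wild-type laboratory strain, kept in steady state (labelled normal) and collected at 72, 96 and 120 h after egg laying (AEL), which all ages given here refer to. Glands of many larvae were pooled, the dissection described in the methods kept the primary lobes and detached the dorsal vessel, ring gland and posterior lobes, and 1 library was made at each age. No spread between samples could therefore be estimated, no p-value is given, and every difference is a difference between libraries.

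When the larval cuticle is broken, hemolymph forms a soft clot of secreted protein fibres within which hemocytes are trapped, and the clot is then hardened by cross-linking and melanization. Hml encodes hemolectin, a very large secreted protein of plasmatocytes with domains related to those of von Willebrand factor, and it is a principal clot fibre protein. Pxn encodes peroxidasin, a secreted haem peroxidase of the extracellular matrix that cross-links collagen IV. The gene fon encodes fondue, an abundant hemolymph protein made largely by the fat body and needed for proper clot fibres. Tg encodes transglutaminase, the enzyme that joins glutamine and lysine residues of clot proteins, with fondue among its substrates. Hml and Pxn also mark the onset of differentiation from prohemocytes, the progenitors of the gland, into plasmatocytes, its phagocytic cells.

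The genes lie on the 3rd and 2nd chromosomes and differ widely in size. On the BDGP6.54 annotation, Hml (FBgn0029167) spans chromosome 3L, 13846054 to 13860001, on the plus strand, and its longest reading frame has 3843 codons. Pxn (FBgn0011828) spans 3L, 2601455 to 2630064, on the minus strand, with 1527 codons and 5 annotated transcripts. The gene fon (FBgn0032773) spans 2L, 19383138 to 19386205, on the minus strand, with 577 codons. Tg (FBgn0031975) spans 2L, 8011405 to 8026898, on the plus strand, with 776 codons. No other annotated gene overlapped Hml, fon or Tg. Exons of Pxn shared 82 bases with CG16986 on the opposite strand and 151 bases with lncRNA:CR45660 on its own strand. Those genes had at most 455 and 61 counts in any library, against at least 100294 for Pxn.

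Total counts were between 34278733 and 49511614 per library, so that 3 counts stood for 0.0606 to 0.0875 CPM (counts per 1000000 counts of a library). CPM were scaled by TMM, the trimmed mean of M-values. Among genes with 1 to 20 counts, 69.6% to 72.0% had an even count in each library. Intervals cover counting error only, and they are too narrow if both mates of a read pair were counted, which was not tested. The 72 h library was the deepest, with 49511614 counts against 37922500 at 96 h and 34278733 at 120 h. It had 10199 genes at 10 counts or more, against 8709 at 96 h and 8598 at 120 h. That cut is on raw counts, and the part of depth in the difference was not tested. Defining markers of the gland were present at every age. Tep4 and Ance, markers of prohemocytes, summed to 17813, 17787 and 19958 CPM at 72, 96 and 120 h, and 7 of 7 plasmatocyte markers, Hml and Pxn included, were above 1 CPM in each library.

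The 4 genes split into 2 pairs. Hml and Pxn were higher in the 96 and 120 h glands than in the 72 h glands by less than 4-fold, whereas fon and Tg fell by more than 4-fold with levels in the 2 older libraries that were close to each other. A gene was called when the log2 ratio of its CPM, taken after adding 1 CPM, reached 2 or -2, a 4-fold difference. At 96 against 72 h, 2 of the 4 genes were called lower, fon and Tg, and 8.62% of all tested genes were. None of the 4 was called higher, against 1.2% of tested genes. The same 2 genes were called lower at 120 against 72 h, where 9.68% of tested genes were lower and 2.11% higher. At 120 against 96 h none of the 4 was called, and 0.0663% of tested genes were lower and 0.188% higher. In bulk RNA, fewer cells of a type and less RNA per cell cannot be told apart.

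**Figure D1:**
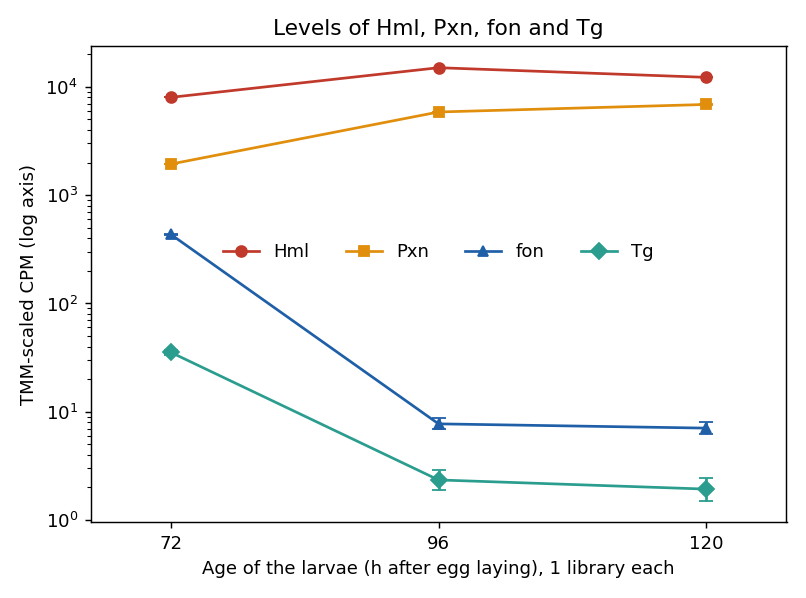
TMM-scaled CPM on a log axis of Hml, Pxn, fon and Tg at 72, 96 and 120 h, 1 library at each age, with error bars of the Wilson 95% interval of the counting error. Hml and Pxn lie at 1937 CPM or more at every age, while fon and Tg lie under 8 CPM at 96 and 120 h.

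Hml had 414218, 563473 and 405653 counts at 72, 96 and 120 h, which is 7999, 15024 and 12241 CPM. Per length, as CPM per kb of exonic sequence, it ranked 119, 88 and 105 of 8868 genes at these ages. Of all counts of the library, Hml took 0.837% (Wilson 95% interval 0.834% to 0.839%), 1.49% (1.48% to 1.49%) and 1.18% (1.18% to 1.19%). Its level peaked at 96 h. Hml was 1.88-fold higher at 96 than at 72 h (exact 95% interval 1.87 to 1.89). In the log2 ratio of CPM + 1, 5.83% of tested genes lay above it in that comparison. At 120 h Hml was 0.815 times its level at 96 h (0.811 to 0.818) and 1.53 times its level at 72 h (1.52 to 1.54). None of these ratios reached 2-fold.

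Pxn had 100294, 219773 and 227933 counts at 72, 96 and 120 h, or 1937, 5860 and 6878 CPM. Per length it ranked 200, 108 and 97 of 8868 genes. The step between 72 and 96 h held most of the difference. Pxn was 3.03-fold higher at 96 than at 72 h (3.003 to 3.048). In the log2 ratio of CPM + 1, 176 of the 9056 tested genes lay above Pxn. It was 1.17-fold higher at 120 than at 96 h (1.17 to 1.18) and 3.55-fold higher at 120 than at 72 h (3.53 to 3.58). With a 2-fold call in place of 4-fold, Pxn was called higher in both older libraries against 72 h, beside 4.76% of tested genes at 96 h and 7.39% at 120 h. Under that call fon and Tg were the lower ones, beside 19.5% of tested genes at 96 h and 20.7% at 120 h. Between 120 and 96 h none of the 4 reached 2-fold, and 1.47% of tested genes were higher and 1.12% lower.

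Within a library, the ratio of 2 genes does not depend on how libraries are scaled. The counts of Hml were 4.13 times those of Pxn at 72 h (4.10 to 4.16), 2.56 times at 96 h (2.55 to 2.58) and 1.78 times at 120 h (1.77 to 1.79). The intervals of the 3 libraries do not overlap, and the ratio was lower at each later age. In CPM per kb, Hml had 680, 1278 and 1041, and Pxn had 325, 984 and 1155. The ratio per length was 2.09, 1.30 and 0.902, so Hml was the higher of the pair at 72 and 96 h and Pxn at 120 h.

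**Figure D2:**
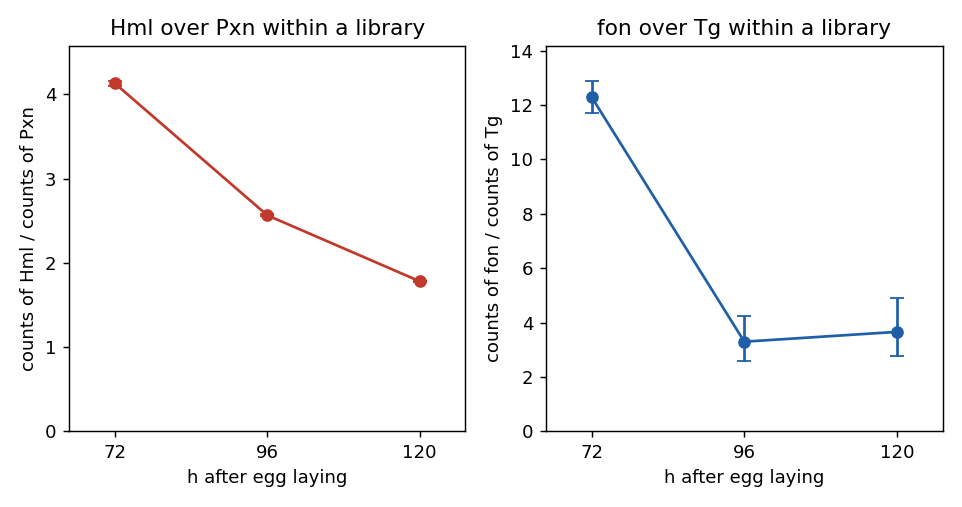
Ratio of the counts of Hml to those of Pxn (left) and of fon to those of Tg (right) within each library at 72, 96 and 120 h, on linear axes that start at 0, with exact 95% intervals of the counting error. The first ratio is 4.13, 2.56 and 1.78, and the second is 12.3, 3.30 and 3.66.

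Both genes were also set against other genes of the plasmatocyte marker list, as ratios of counts. The change of a ratio with age is the comparison, since genes differ in length. How far RNA of other tissues entered these counts was not tested. Cg25C and vkg encode the collagen IV chains of the basement membrane, the target of peroxidasin. Hml had 2.18 counts per count of Cg25C at 72 h (2.17 to 2.196), 2.17 at 96 h (2.16 to 2.18) and 1.32 at 120 h (1.31 to 1.33). Hml and Cg25C thus kept nearly 1 ratio between 72 and 96 h and parted by 120 h. Pxn had 0.529 counts per count of Cg25C at 72 h, 0.848 at 96 h and 0.741 at 120 h. Against NimC1, a phagocytosis receptor of mature plasmatocytes, both genes were lower at each later age. The counts of Hml were 112, 24.5 and 14.3 times those of NimC1 at 72, 96 and 120 h, and those of Pxn 27.0, 9.55 and 8.03 times. The choice of these pairs, and of those with Rfabg, Apoltp, Mhc, nSyb and Lsp1beta given further on, was made with the values known.

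The gene fon had 22477, 290 and 234 counts at 72, 96 and 120 h, which is 434, 7.73 and 7.06 CPM. Per length it ranked 358 of 8868 genes at 72 h, then 6137 and 6244. It was 56.1-fold lower at 96 than at 72 h (50.0 to 63.2) and 61.5-fold lower at 120 than at 72 h (54.04 to 70.2). Ranked by the log2 ratio of CPM + 1, 37 of the 9056 tested genes lay below fon at 96 against 72 h. At 120 against 72 h, 30 did. The added 1 CPM shrinks the ratios of genes with low levels, so these are not ranks of the folds. At 120 h fon had 0.913 times its level at 96 h, and the interval, 0.765 to 1.09, includes 1.

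Tg had 1830, 88 and 64 counts at 72, 96 and 120 h, or 35.3, 2.35 and 1.93 CPM. It was 15.1-fold lower at 96 than at 72 h (12.2 to 18.9) and 18.3-fold lower at 120 than at 72 h (14.3 to 23.9). Ranked by the log2 ratio of CPM + 1, not by the fold, 249 tested genes lay below Tg at 96 against 72 h. At 120 against 72 h, 229 did. Its interval at 120 against 96 h, 0.587 to 1.15 times, includes 1. Neither transcript was absent from the older libraries. The counts of fon and Tg at 96 and 120 h remained far above the floor of 3 counts. Which cells or tissues these counts came from was not tested.

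The enzyme and its substrate differed in the size of their drop. The counts of fon were 12.3 times those of Tg at 72 h (11.7 to 12.9), 3.30 times at 96 h (2.59 to 4.23) and 3.66 times at 120 h (2.76 to 4.90). The interval at 72 h lies above both later ones, which overlap each other. The ratio per length was 16.9, 4.53 and 5.03. In CPM per kb, fon had 191, 3.40 and 3.10, and Tg had 11.3, 0.750 and 0.617. The order of the 4 genes per length was thus Hml, Pxn, fon and Tg at 72 and 96 h, with Pxn ahead of Hml at 120 h. Per length, Hml exceeded fon 3.57 times at 72 h, 376 times at 96 h and 336 times at 120 h.

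Together the 4 genes took 1.09% of the counts at 72 h, 2.07% at 96 h and 1.85% at 120 h. Of that sum, fon made up 4.17% at 72 h, 0.0370% at 96 h and 0.0369% at 120 h. Pxn made up 18.6%, 28.0% and 36.0%, and Hml 76.9%, 71.9% and 64.0%.

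**Figure D3:**
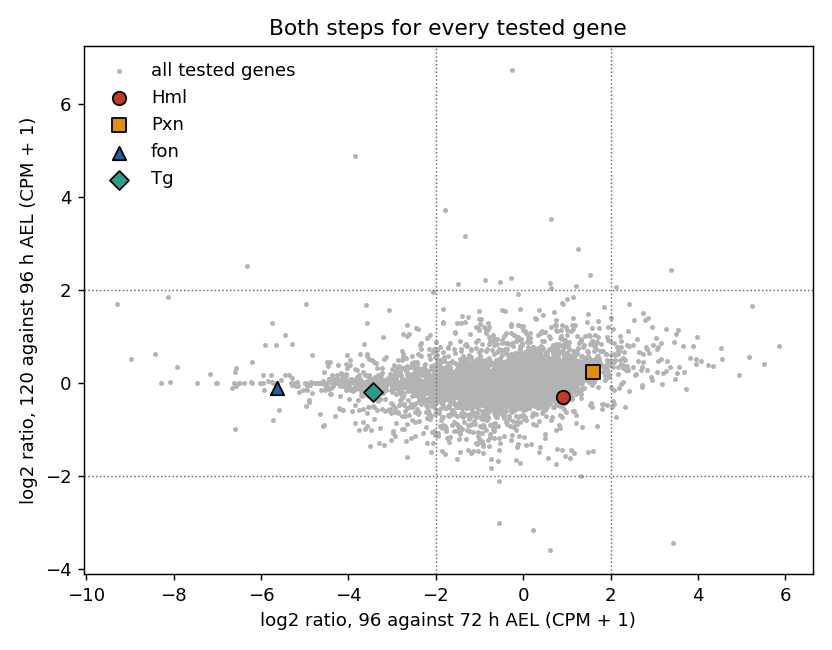
Log2 ratios of scaled CPM + 1 at 96 against 72 h (horizontal axis) and at 120 against 96 h (vertical axis) for each of the 9056 tested genes in grey, with the 4 clotting genes as coloured symbols and dotted lines at 4-fold. All 4 lie within 0.30 of 0 on the vertical axis, and fon and Tg lie left of the lower 4-fold line on the horizontal axis.

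Summed markers of muscle, ring gland, neurons and midgut were also highest in the 72 h library. The 5 dorsal vessel and muscle markers summed to 1882, 137 and 97.0 CPM at 72, 96 and 120 h, and 5 of 5 were lower at 96 and 120 h than at 72 h. At 120 h this sum was 5.16% of its level at 72 h, and Tg was at 5.47% and fon at 1.63%. The 6 ring gland markers summed to 767, 299 and 130 CPM and the 4 neuron markers to 81.4, 9.33 and 8.78 CPM. The midgut sum rested on the protease gene Jon65Aiv, with 9079 counts at 72 h. The other midgut markers, alphaTry, betaTry and Mal-A1, had 12, 8 and 2 counts at 72 h. All 4 midgut markers were at 0 in the later libraries. Cyp4g1, the marker of oenocytes, had 22.0, 0.587 and 45.7 CPM and was highest at 120 h. How far RNA of these tissues entered the values of fon and Tg was not tested.

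**Figure D4:**
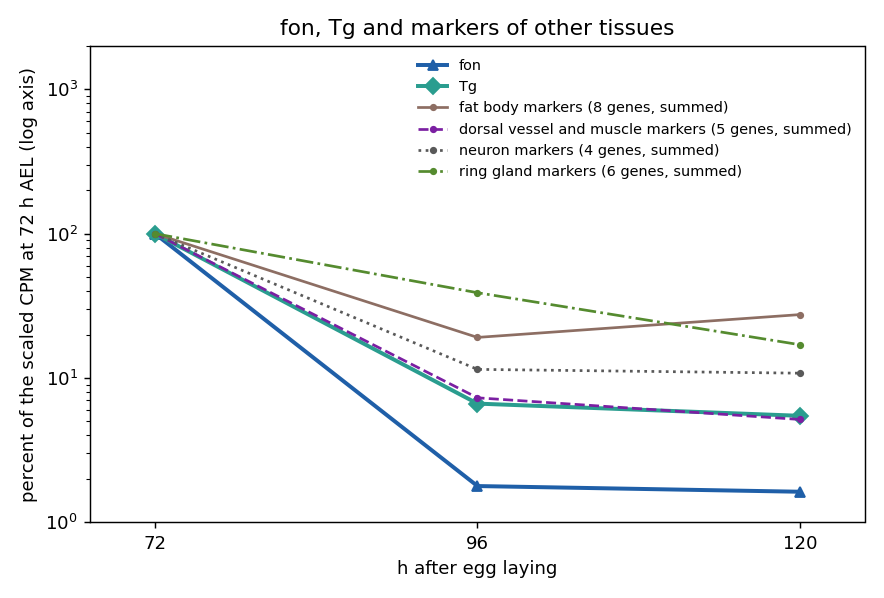
Scaled CPM of fon, Tg and the summed markers of 4 other tissues at 72, 96 and 120 h, as a percent of the value at 72 h on a log axis. At 120 h fon is at 1.63%, Tg at 5.47%, the dorsal vessel and muscle sum at 5.16%, neurons at 10.8%, the ring gland at 17.0% and the fat body at 27.5%.

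The fat body, where fondue is chiefly made, gave a divided picture. Its 8 markers summed to 1780, 340 and 489 CPM at 72, 96 and 120 h. The 2 lipoprotein genes among them, Rfabg and Apoltp, which code for carriers of lipid in the hemolymph, summed to 1640, 42.7 and 42.2 CPM. The other 6, genes of larval serum proteins and related fat body proteins, summed to 141, 297 and 447 CPM, higher at the later ages. Of these 6, Lsp2 and Fbp2 were at 0 at 72 h and Fbp1 at 96 h. The split into 2 and 6 genes was made by hand, with earlier results of these data known. What set the difference between the 2 sums was not tested.

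Rfabg had 76849, 1391 and 1315 counts at 72, 96 and 120 h, a course close to that of fon. The counts of fon were 0.292 times those of Rfabg at 72 h (0.288 to 0.297), 0.208 times at 96 h (0.183 to 0.237) and 0.178 times at 120 h (0.154 to 0.205). The counts of Tg were 0.0238 times those of Rfabg at 72 h (0.0227 to 0.0249), 0.0633 times at 96 h (0.0504 to 0.0785) and 0.0487 times at 120 h (0.0373 to 0.0626). Relative to this fat body transcript, fon was thus lower and Tg higher in the older glands. Against Lsp1beta, a larval serum protein gene of the fat body, fon had 4.62, 0.0486 and 0.0497 counts per count at 72, 96 and 120 h. The other lipoprotein gene gave a different course, with 2.79 counts of fon per count of Apoltp at 72 h (2.72 to 2.86), 1.38 at 96 h (1.15 to 1.66) and 2.85 at 120 h (2.21 to 3.72). Per count of Mhc, the muscle myosin heavy chain gene, fon had 0.481, 0.160 and 0.218 counts and Tg had 0.0392, 0.0487 and 0.0596. Tg had 0.227, 0.419 and 0.780 counts per count of Apoltp. Per count of nSyb, a synaptic vesicle gene of neurons with 1505, 16 and 7 counts, fon had 14.9, 18.1 (10.97 to 32.14) and 33.4 (15.97 to 84.06) counts, and Tg had 1.22, 5.50 (3.21 to 10.04) and 9.14 (4.19 to 23.7). The direction of fon thus differed with the marker it was set against, while Tg was higher at 96 and 120 h relative to Rfabg, Apoltp, Mhc and nSyb and lower relative to Lsp1beta, with 0.376, 0.0148 and 0.0136. Against Mhc the intervals of Tg at 72 h (0.0374 to 0.0410) and 96 h (0.0388 to 0.0603) overlap. The part of fat body, muscle or neuron RNA in these values was not tested.

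The other proteins found in or linked to the clot were described from a list of 14 genes, of which 13 were tested. At 120 against 72 h, 7 were called higher and 1 lower, with a median log2 ratio of 2.25 beside -0.04 over all tested genes. Over all tested genes 2.11% were called higher and 9.68% lower. The median of the list was 1.59 with a minimum of 10 CPM and 1.30 with 5 CPM added. With a 2-fold call, 8 were higher and 1 lower, beside 7.39% and 20.7% of all tested genes. The 7 genes called higher were PPO1 and PPO2, which are crystal cell markers here, PPO3, which is a lamellocyte marker, Lsp1alpha, Lsp2 and Fbp1, which are fat body markers, and Cpr49Ac. The 4 crystal cell markers, PPO1 and PPO2 among them, summed to 673, 13392 and 16600 CPM at 72, 96 and 120 h, and the part of cell type composition in the list was not tested. PPO1, a prophenoloxidase stored in crystal cells and released for melanization, had 9883, 220079 and 220025 counts at 72, 96 and 120 h. Fbp1, which codes for a fat body receptor for larval serum proteins, had 10, 0 and 3479 counts. PPO1 was called higher at 96 against 72 h, and Fbp1 at 120 against 96 h. The lone gene called lower was Rfabg. Idgf3, a secreted chitinase-like protein, had the smallest ratio of those above 0, at a log2 ratio of 0.46. PPO1 and PPO2 are related in sequence, so reads may have been shared between them.

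The genes of the melanization cascade moved in both directions. Of 12 tested genes, 5 were called higher and 5 lower at 120 against 72 h, beside 2.11% and 9.68% of all tested genes. PPO1, PPO2 and PPO3 were among the 5 called higher, and the same genes were counted in the clot-associated list. Another of the 5 was yellow-f, an enzyme of melanin synthesis, with 283, 2286 and 4576 counts at 72, 96 and 120 h. Its relative yellow-f2 had 429, 2 and 18 counts, and Hayan, a protease upstream of the prophenoloxidases, had 261, 14 and 4 counts. The 5 genes called lower had 2 to 80 counts at 120 h, and the median log2 ratio of the list was 0.44. The median was 2.92 with a minimum of 10 CPM and 0.13 with no minimum.

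Peroxidasin acts on the basement membrane, a matrix for which 15 genes were tested. At 120 against 72 h, 10 of the 15 lay within 2-fold, 3 were higher and 2 lower. Over all tested genes, 7.39% were at least 2-fold higher and 20.7% lower. With the 4-fold call, 1 of the 15 was called higher and 2 were called lower, beside 2.11% and 9.68% of all tested genes. The median log2 ratio of the list was 0.26. Glt, which codes for the secreted protein glutactin, was the gene called higher, at 4.70-fold, and Cg25C was 2.53-fold higher. The genes called lower were trol, which codes for the proteoglycan perlecan, with 81477, 11375 and 9215 counts at 72, 96 and 120 h, and Mp, a multiplexin collagen, with 4281, 687 and 195 counts. Ppn, which codes for the matrix protein papilin, was added with its values known. Hml had 0.702, 1.57 and 1.85 counts per count of Ppn at 72, 96 and 120 h.

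At 120 against 72 h, none of 5 tested genes of the other haem peroxidases and dual oxidase was called higher, and 2 lower. The shares over all tested genes were 2.11% and 9.68%, and the median log2 ratio of the list was -1.93. That median moved to -0.67 if 5 CPM was added in place of 1, to -2.55 with 0.1 CPM, and to -0.014 if genes of the list under 1 CPM were kept. Irc, a secreted catalase-like peroxidase, was 2.38-fold higher, and Duox had 380, 179 and 242 counts at 72, 96 and 120 h. CG10211 had 829, 44 and 2 counts, CG42331 had 783, 164 and 83, and CG5873 had 158, 10 and 2. The other 4 listed peroxidase genes had at most 21 counts in any library.

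Of 6 tested plasmatocyte surface receptors, 5 were called higher at 120 against 72 h, beside 2.11% of all tested genes. The receptors had a median log2 ratio of 2.77, beside 0.61 for Hml and 1.83 for Pxn. NimC1 was 11.9-fold and crq, a scavenger receptor for apoptotic cells, 11.8-fold higher. The gene eater, a receptor for bacteria, was 5.83-fold higher, and He, which codes for the pan-hemocyte protein Hemese, 2.18-fold. Only He lay below Pxn in this comparison.

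Transcription factors of hemocytes were listed because GATA, Runx and other factors act in plasmatocyte and crystal cell differentiation. Of 10 tested, 2 were called higher at 120 against 72 h and none lower, beside 2.11% and 9.68% of all tested genes. The median log2 ratio of the list was 0.96. The 2 called higher were crystal cell factors. At 72, 96 and 120 h, lz had 28, 701 and 736 counts and peb had 100, 1407 and 1137. The smallest ratios were those of kn, a factor of the niche and prohemocytes, and Dif, an NF-κB factor, at log2 ratios of -0.54 and -0.41.

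At 96 against 72 h, 3 of the clot-associated genes were called higher and 1 lower. Of the melanization genes, 4 were called higher and 4 lower, and PPO1 and PPO2 were counted in both lists. Called higher were also 5 receptors and 2 transcription factors. In the same step 2 basement membrane genes and 1 peroxidase gene were called lower. Over all tested genes, 1.2% were called higher and 8.62% lower in that step. At 120 against 96 h, where 0.188% of all tested genes were called higher and 0.0663% lower, the genes called in the 6 lists were Fbp1 and Cpr49Ac, a cuticle protein gene with 3606, 3996 and 15798 counts at 72, 96 and 120 h.

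**Figure D5:**
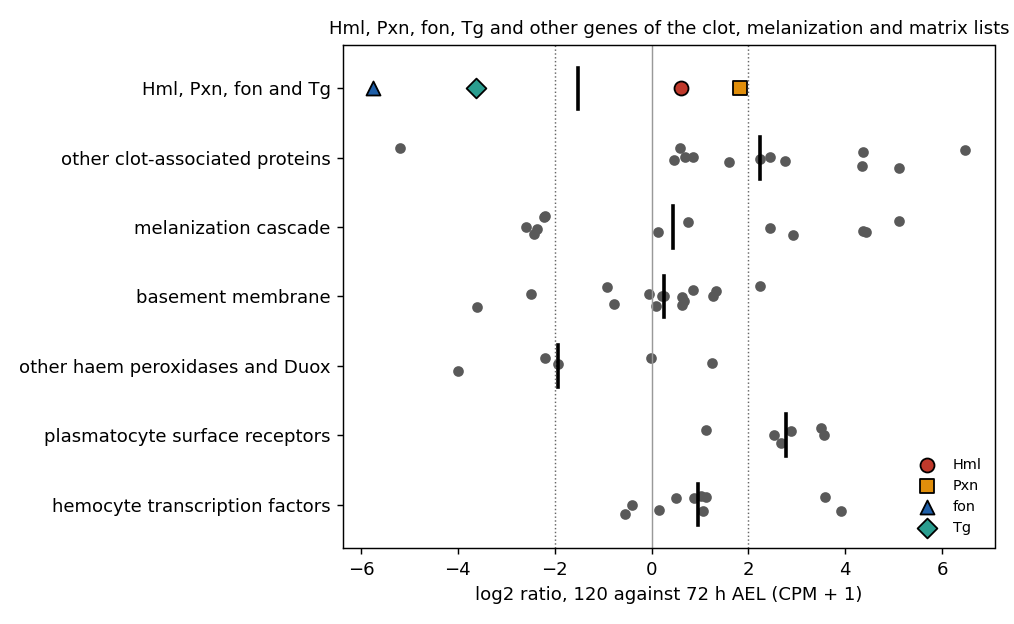
Log2 ratios at 120 against 72 h of the 4 clotting genes (coloured symbols, top row) and of the tested genes of 6 other lists (grey points), with a black bar at each median and dotted lines at 4-fold. Hml lies at 0.61, Pxn at 1.83, Tg at -3.63 and fon at -5.75, and the medians of the clot-associated list and the receptor list lie at 2.25 and 2.77.

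Genes with the course most like that of each clotting gene were found by the distance between their log2 ratios in both steps, over 3 libraries and 6523 candidate genes with at least 10 scaled CPM in 1 library. With so few points, many genes lie near. The nearest to Hml were CG33217, Csp, armi, CG7120 and Parp, at distances of 0.0587 to 0.0917. The nearest to Pxn were CR45018, CG17337, Ctr1A, pigs and CG33056, at 0.0560 to 0.0749, of which Ctr1A codes for a copper importer. CG17337 had 331, 964 and 1144 CPM at 72, 96 and 120 h.

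The genes nearest to fon were Jon25Bii, CG7017, CG7465, CG7299 and Tps1, at distances of 0.116 to 0.204. Jon25Bii codes for a Jonah protease of the midgut and Tps1 for trehalose-6-phosphate synthase, the enzyme that makes the blood sugar of insects. These 5 had 0 to 20 counts at 96 and 120 h, against 290 and 234 for fon, so their log2 ratios were set largely by the added 1 CPM. The nearest to Tg were CG14300, CG10830, CG9451, Gpo-1 and Eaat1, at 0.0453 to 0.0979. CG14300, CG10830 and CG9451 had 0 to 14 counts at 96 and 120 h, against 88 and 64 for Tg. Their log2 ratios were also set largely by the added 1 CPM. Gpo-1, a mitochondrial glycerol-3-phosphate dehydrogenase, had 11409, 692 and 517 counts at 72, 96 and 120 h. Eaat1, a glutamate transporter of glia, had 958, 34 and 24. At 96 and 120 h Eaat1 had 0.907 and 0.724 CPM, less than the added 1 CPM, so its ratios also depended on that addition.

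Flanking protein-coding genes were examined for the local context of each gene. CG17549, on the same strand as fon and 844 bases from it, had 825, 77 and 23 counts at 72, 96 and 120 h, and CG17350, 44 bases from the other end, had at most 14. The neighbours of Tg had at most 81 counts (CG34010) and 8 counts (CG7367) in any library. CG8745, 25 bases from Hml, had 684, 486 and 419 counts, and CG16985, 1212 bases from Pxn, had 633, 257 and 216. Tsp68C and CG42245, the other neighbours of Hml and Pxn, had 0 counts in each library.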

How the data were processed

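The authors deposited raw read counts per gene, which had not been normalized, from 1 library at each of 3 ages. The submitters' processing notes name FastQC 0.11.8, STAR 2.5.3a, featureCounts 1.6.0 and the build BDGP6. The annotation, the use of strand and the counting of read pairs are not given in the sources used here. Lengths and coordinates came from Ensembl release 115 (BDGP6.54), in which 17216 of 17490 identifiers were found. Scaling factors were computed in R 4.3.3 with edgeR 4.0.16 (TMM over the genes tested) and, as an alternative, DESeq2 1.42.0. Ratios and figures were made in Python 3.11.15 with pandas 2.3.3, SciPy 1.17.1, Matplotlib 3.10.9 and NumPy 2.4.6. Genes with at least 1 unscaled CPM in 1 library, 9056 in all, were tested. A pseudocount of 1 CPM was added before log2 ratios were taken, so changes of low genes are understated. Folds were taken from scaled counts without it, with exact (Clopper-Pearson) 95% intervals of a ratio of Poisson counts. The functions were tested on simulated data. The 4 genes, the lists and the call rule were chosen with earlier results of these data known. Named genes were the 4 genes, the 2 largest and 2 smallest ratios at 120 against 72 h of each list, the 5 nearest courses to each gene, and cell type markers. Others, the flanking genes included, were named outside this rule. Alternatives were other scalings, pseudocounts, filters, lengths and calls, and thinned or halved counts. Promoter and protein sequences were not analysed here.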

Additional observations from a re-analysis of the deposited data

How the results depend on the processing

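No library had a replicate, so none could be left out. No paired analysis was possible because each age has 1 library. Log2 ratios of the 4 genes kept direction and call in 94 cases and reversed in none. In 2 cases, Pxn became called higher under the 2-fold call, with 1.597 at 96 h and 1.83 at 120 h against 72 h. Over scalings, pseudocounts and thinning, the log2 ratio of the 120 h to the 72 h library was 0.50 to 0.62 for Hml, 1.71 to 1.83 for Pxn, -5.92 to -5.19 for fon and -4.12 to -2.54 for Tg. Halved counts leave folds as they are and widen the intervals, which between 120 and 96 h became 0.710 to 1.17 for fon and 0.505 to 1.33 for Tg. The order per length held in 12 of 12 places with the longest transcript. Of the 5 genes nearest to Tg, 3 remained with centred levels.

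Numbers of all tested genes called moved with the threshold. Between 96 and 72 h, 109 were higher and 781 lower. These became 194 higher and 1528 lower if 0.1 CPM was added, 66 and 240 if 5 CPM was added, and 431 and 1770 under the 2-fold call, while a 10 CPM minimum left 442 lower. Between 120 and 96 h, 17 were higher and 6 lower. These became 76 and 79 if 0.1 CPM was added, 6 and 1 if 5 CPM was added, and 133 and 101 under the 2-fold call, while a 10 CPM minimum left 3 lower. Between 120 and 72 h, 191 were higher and 877 lower. These became 287 and 1617 if 0.1 CPM was added, 116 and 276 if 5 CPM was added, and 669 and 1878 under the 2-fold call, while a 10 CPM minimum left 508 lower. Between 120 and 72 h, genes overall had a median log2 ratio of -0.15 if libraries were scaled by total counts, in place of -0.04. List medians moved in 9 cases and held in 153. The melanization list, at 0.44 between 120 and 72 h, had 2.92 with the 10 CPM minimum, where fewer genes were tested, and the clot-associated list had 1.59 there and 1.30 with 5 CPM added, against 2.25. The peroxidase list, at -1.93, had -0.67 with 5 CPM added, -2.55 with 0.1 CPM and -0.014 with no minimum.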
